A study of Sus scrofa with 40 samples.

Results

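Solute carriers are the membrane proteins that move sugars, amino acids, nucleotides, ions, metals and metabolic intermediates into and out of cells and organelles. The SLC25 family sits mostly in the inner mitochondrial membrane, where it exchanges ADP for ATP and carries phosphate, keto acids, nucleotides and cofactors; SLC25A17 is a member of the peroxisomal membrane. In liver, carriers take up bile acids, drugs and amino acids from blood and release glucose, and in fat cells the insulin-responsive glucose carrier GLUT4 brings in glucose for triglyceride synthesis. The carriers described here are the probe sets of a porcine Affymetrix expression array that have a single gene symbol of the form SLC, number, A, number, or SLCO followed by a number, without SLC25A1 and SLC2A5. The rule gave 112 of the 6765 genes named on the array, with 169 of its 23999 probe sets other than controls. SLC2A4RG, SLC9A3R1 and SLC9A3R2 have symbols of this form but are regulators or scaffolds and no carriers, and they are counted apart as 3 regulators.

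Liver and the middle layer of backfat were taken from 20 prepubertal Yorkshire gilts, which are young female pigs, at 6 months of age. The pigs came from lines selected for low or high residual feed intake (RFI), which is feed eaten beyond that predicted from growth and maintenance, so that low RFI pigs are the more feed-efficient. In each line 5 pigs were restricted to 80% of maintenance feed for 8 days and 5 were fed ad libitum. This gave 8 groups of 5 arrays, 40 arrays in all: restricted low RFI, restricted high RFI, ad libitum low RFI and ad libitum high RFI pigs, each in fat and in liver. All pigs had been picked as heterozygotes at one site in the melanocortin 4 receptor gene, and the labels neither tie the liver and fat of a pig together nor say what the replicate numbers mark.

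The arrays had been scaled by the authors to a nearly equal trimmed mean, and their median intensity lay between 127 and 190. The summed intensity of 6 adipocyte marker genes was 61211 to 85262 in fat and 1350 to 2238 in liver. That of 11 hepatocyte marker genes was 3262 to 87527 in fat and 273438 to 436774 in liver. The highest of these fat values, 87527, came from 1 array, low RFI restricted replicate 5, and without it the highest was 12450. Intensity of one probe set cannot be set against that of another, so every level below is compared only within its own probe set.

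Of the 169 probe sets, 105 (83 genes) in fat and 120 (88 genes) in liver passed a filter on low intensity and were tested. To pass, a probe set had to lie above the 40th percentile of an array's intensities on 5 or more of that tissue's 20 arrays, and 93 passed in both tissues, 12 in fat alone, 27 in liver alone and 37 in neither. Those that passed in liver alone hold several carriers of the hepatocyte surface. SLC10A1, the sodium-dependent bile acid uptake carrier, had intensities of 3.8 to 342 with a median of 28.1 in fat (342 in low RFI restricted replicate 5 and at most 60.6 in the other fat arrays), against 6775 to 18576 with a median of 15828 in liver. SLC2A2, the glucose carrier GLUT2 of liver and beta cells, had 3.6 to 43.6 (median 19.3) in fat, against 1704 to 3747 (median 2278) in liver. SLC15A2, SLC36A2, SLC25A36 and SLC1A3 are examples chosen after their values were seen. The 3 probe sets of SLC15A2, a peptide carrier, had medians of 40.4, 63.0 and 39.0 in fat, against 1474, 1179 and 1277 in liver, and none exceeded the filter level on any fat array. Carriers that passed in fat alone were SLC36A2, a proton-coupled amino acid carrier (1105 to 4068, median 1653, in fat, against a median of 19.0 in liver), SLC25A36, a mitochondrial pyrimidine nucleotide carrier (251 to 727, median 481, in fat, against a median of 64.7 in liver), and SLC1A3, a glutamate carrier (159 to 393, median 221, in fat, against a median of 30.3 in liver). Since these genes were taken from those passing in one tissue alone, the gap between the tissues is part of the choice and no test. Of the genes to be followed in any case, SLC7A5, SLC16A1 and SLCO1B3 had no probe set that met the rule, and SLC27A1 passed the filter in neither tissue.

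In fat of restricted pigs 4 of 12 sugar carrier genes and 7 of 19 SLC25 family genes fell, and 1 SLC25 gene rose. A gene was counted when any of its probe sets passed, and the other tested probe sets of SLC2A4 and SLC25A3 did not pass. With control measures of RNA quality as covariates, described further on, SLC2A4 of the sugar carriers and 5 of these 8 SLC25 genes no longer passed. In the comparison of 10 restricted with 10 ad libitum pigs, tested with limma across all 15498 probe sets that passed the filter in fat and counted at a Benjamini-Hochberg adjusted p under 0.05, 22 of the 105 solute carrier probe sets (20 genes) changed, which is 21% against 25.8% of all probe sets. Lower signal was found for 17 (16.2%, against 10.7% of all) and higher signal for 5 (4.76%, against 15.1% of all). The median log2 difference, restricted minus ad libitum, was -0.07 over the carriers and 0.08 over all probe sets, and 60% of the carriers and 39.6% of all probe sets were below 0. After quantile normalization the medians were -0.14 and 0.02, with 4 carriers higher and 18 lower, and over all probe sets 1823 were higher and 1906 lower, against 2344 and 1655 with the authors' scaling. The carriers passing the filter did not include those too dim in fat to be tested, and in whole tissue a smaller share of cells of one type and less RNA per cell cannot be told apart.

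Over the 19 SLC25 family genes tested in fat the median log2 difference was -0.20. SLC25A33, which carries pyrimidine nucleotides into mitochondria, changed by the most of the carriers called. The probe set that passed the filter read 915, 1585, 2388, 1710 and 1985 in restricted low RFI pigs and 1754, 1095, 3419, 1049 and 1815 in restricted high RFI pigs. In ad libitum pigs it read 4131, 965, 1736, 6439 and 2340 in the low RFI line and 7269, 10050, 3048, 7286 and 9391 in the high RFI line. All 10 restricted pigs were below the ad libitum median of 5285, but the ranges overlapped, and within the low RFI line they overlapped more than within the high RFI line. The difference was -1.34 ± 0.305 on the log2 scale (SE), a 2.53-fold lower signal, with an adjusted p of 0.00311 in limma. It was -0.63 in low RFI pigs (adjusted p 0.393) and -2.05 in high RFI pigs (adjusted p 0.00616), and the difference between the lines, low minus high, was 1.42 ± 0.611 and had an adjusted p of 1.

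SLC25A17, which carries coenzyme A, FAD and NAD across the peroxisomal membrane, was the carrier whose diet groups did not overlap. Its intensity ranged from 2066 to 3455 with a median of 3208 in restricted pigs, against 3553 to 5515 with a median of 4892 in ad libitum pigs. It fell by 0.67 ± 0.10 on the log2 scale, 1.59-fold, with an adjusted p of 8.67e-05, and was lower in the low RFI line (-0.70) and in the high RFI line (-0.63), past the threshold in both. It was 1 of 105 carriers with all restricted values under all ad libitum values, which is 0.952%, against 1.01% of all probe sets.

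Of the 3 ADP/ATP carriers measured, SLC25A5 and SLC25A6 fell. SLC25A5 had 1436 to 3675 with a median of 2352 in restricted pigs, against 2407 to 4182 with a median of 3348 in ad libitum pigs, a log2 difference of -0.57 ± 0.143 (adjusted p 0.0064). SLC25A6 had 5157 to 9729 (median 6640) in restricted pigs, against 6512 to 13767 (median 9181) in ad libitum pigs, and differed by -0.43 ± 0.139 (adjusted p 0.0258). Both pairs of groups overlapped, and the SLC25A6 call was lost without high RFI ad libitum replicate 5 (adjusted p 0.0539), without low RFI ad libitum replicate 4 (0.0542) and after quantile normalization (0.0978). SLC25A4, the ADP/ATP carrier of muscle and heart, differed by -0.17 (adjusted p 0.532) and did not pass.

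The phosphate carrier SLC25A3, which supplies phosphate for ATP synthesis, had 10267 to 13034 with a median of 11767 in restricted pigs, against 11103 to 16067 with a median of 13622 in ad libitum pigs, and fell by 0.24 ± 0.0755 (adjusted p 0.0223). Its dimmer probe set gave 0.40 with an adjusted p of 0.455, so that the probe sets of this gene did not point the same way. SLC25A39, a carrier needed for mitochondrial glutathione uptake, had 321 to 555 (median 460) in restricted pigs, against 366 to 1031 (median 718) in ad libitum pigs, and fell by 0.62 ± 0.146 (adjusted p 0.0037). The oxoglutarate/malate carrier SLC25A11, part of the malate-aspartate shuttle, had 153 to 331 (median 234) in restricted pigs, against 194 to 568 (median 334) in ad libitum pigs, and fell by 0.56 ± 0.205 (adjusted p 0.0475). SLC25A48, linked to mitochondrial choline uptake, was the mitochondrial carrier that rose: it had 104 to 171 (median 123) in restricted pigs, against 48.1 to 134 (median 98.7) in ad libitum pigs, a log2 difference of 0.52 ± 0.185 (adjusted p 0.0415). These last 2 calls lie at the threshold: leaving out any one of 13 of the 20 arrays ended that of SLC25A11 (adjusted p 0.0508 to 0.0948), and any one of 11 of the 20 ended that of SLC25A48 (0.0521 to 0.0785). The ad libitum median of SLC25A48 also lay within the range of the filter level on those arrays (91.5 to 107), so the size of its rise is uncertain. SLC25A20, the carnitine/acylcarnitine carrier of fatty acid oxidation, differed by -0.18 (adjusted p 0.238) and did not pass.

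**Figure D1:**
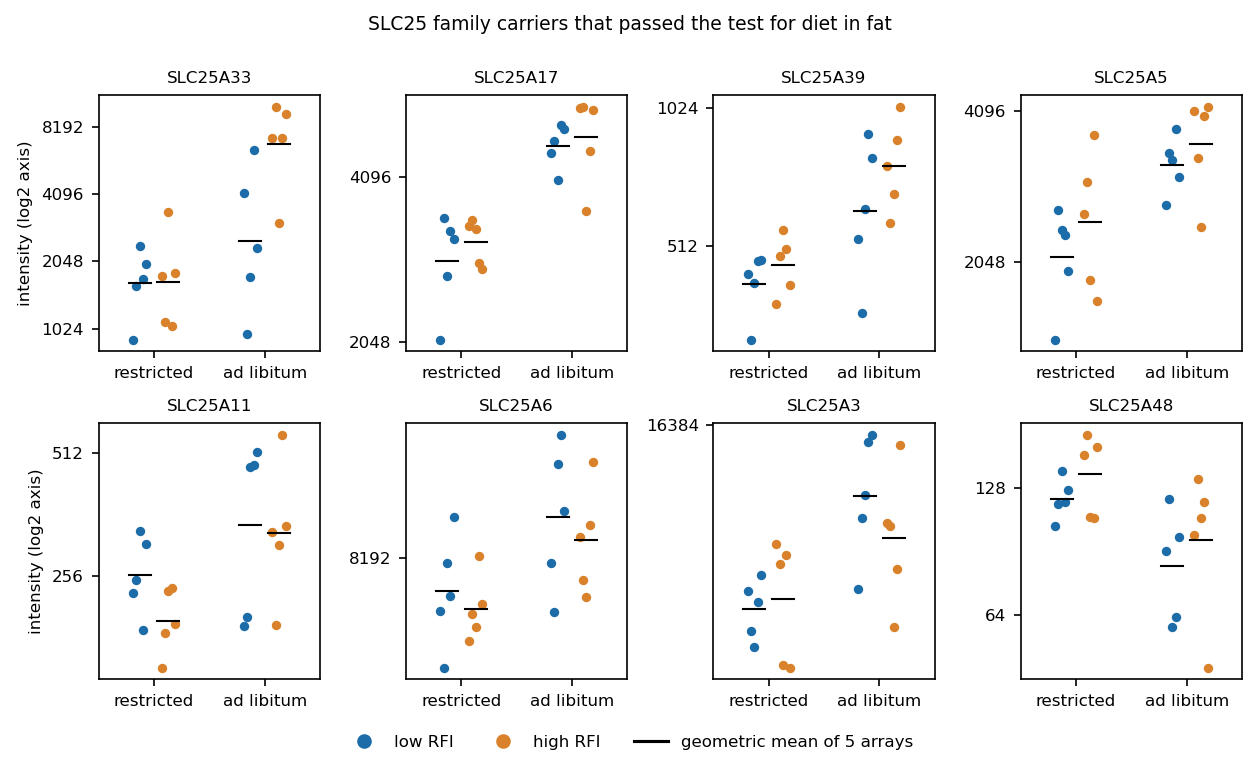
Intensity (log2 axis) of the 8 SLC25 family probe sets that passed the test for diet in fat, restricted pigs on the left and ad libitum pigs on the right of each panel. Points are single arrays, coloured by line, and black bars are geometric means of 5 arrays. SLC25A17 is the panel in which the diet groups do not overlap, and the ad libitum arrays of SLC25A33 spread from 965 to 10050.

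Sugar carriers gave 5 lower probe sets (4 genes) and none higher of 14 tested (12 genes), with a median of -0.34 over genes and 9 of 12 genes below 0. SLC2A12, the insulin-responsive glucose carrier GLUT12, had 114 to 202 with a median of 157 in restricted pigs, against 161 to 366 with a median of 280 in ad libitum pigs, and fell by 0.78 ± 0.131 (1.72-fold, adjusted p 0.000235). It was past the threshold in low RFI pigs (-0.60) and in high RFI pigs (-0.97). SLC2A1, the widely expressed glucose carrier GLUT1, had 248 to 730 (median 364) in restricted pigs, against 362 to 897 (median 597) in ad libitum pigs, and fell by 0.67 ± 0.193 (1.59-fold, adjusted p 0.0145). Every restricted pig was below the ad libitum median for SLC2A12, and 6 were below every ad libitum pig.

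For SLC2A4, which encodes GLUT4, 2 of 3 probe sets passed the filter in fat and they did not give the same result. The brighter one had 30.1 to 252 with a median of 136 in restricted pigs, against 98.6 to 374 with a median of 290 in ad libitum pigs, and fell by 0.92 ± 0.315 (1.89-fold, adjusted p 0.0361). The dimmer one had 18.8 to 150 (median 107) in restricted pigs, against 44.2 to 156 (median 100) in ad libitum pigs, a difference of -0.07 with an adjusted p of 0.909. The call on the brighter probe set was lost when any one of 9 of the 20 arrays was left out (adjusted p 0.0512 to 0.0704). SLC37A4, which takes glucose 6-phosphate into the endoplasmic reticulum for release of free glucose, fell on both of its probe sets. The dimmer had 147 to 329 (median 202) in restricted pigs, against 238 to 599 (median 340) in ad libitum pigs, and differed by -0.73 ± 0.176 (adjusted p 0.00451). The brighter had 239 to 619 (median 331) in restricted pigs, against 269 to 783 (median 620) in ad libitum pigs, and differed by -0.65 ± 0.202 (adjusted p 0.021). On the dimmer, 8 restricted pigs were below every ad libitum pig.

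Outside the sugar and SLC25 carriers 4 genes fell, SLC35A3, SLC33A1, SLC30A5 and SLC16A13. SLC35A3, which carries UDP-N-acetylglucosamine into the Golgi for glycan synthesis, had 210 to 386 (median 291) in restricted pigs, against 311 to 652 (median 505) in ad libitum pigs, and fell by 0.78 ± 0.137 (1.72-fold, adjusted p 0.000355). SLC33A1, the acetyl-CoA carrier of the endoplasmic reticulum, fell by 0.47 ± 0.10 on one probe set (268 to 534, median 378, in restricted pigs, against 433 to 619, median 537, in ad libitum pigs; adjusted p 0.00203). The other 2 tested probe sets of SLC33A1 gave -0.25 (adjusted p 0.255) and -0.03 (adjusted p 0.864) and did not pass. SLC30A5, which loads zinc into the early secretory pathway, fell on both probe sets tested: the dimmer in fat had 316 to 875 (median 511) in restricted pigs, against 582 to 1040 (median 799) in ad libitum pigs, a difference of -0.64 ± 0.135 (adjusted p 0.00163). The brighter in fat had 329 to 1007 (median 683) in restricted pigs, against 580 to 1979 (median 968) in ad libitum pigs, a difference of -0.73 ± 0.208 (adjusted p 0.0136). SLC16A13, a member of the monocarboxylate carrier family, had 144 to 333 (median 221) in restricted pigs, against 218 to 565 (median 322) in ad libitum pigs, and fell by 0.57 ± 0.138 (adjusted p 0.00489). The diet groups of all 4 genes overlapped.

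The 4 carriers that rose outside the SLC25 family move creatine, organic cations, bicarbonate and amino acids. SLC6A8, the creatine carrier, had 541 to 1359 with a median of 1049 in restricted pigs, against 350 to 906 with a median of 524 in ad libitum pigs, and rose by 0.87 ± 0.20 (1.83-fold, adjusted p 0.00315). SLC4A4, a sodium bicarbonate cotransporter, had 54.9 to 206 (median 111) in restricted pigs, against 15.4 to 102 (median 74.2) in ad libitum pigs, and rose by 0.94 ± 0.284 (1.92-fold, adjusted p 0.0187). The filter level was 91.5 to 107 on the ad libitum fat arrays, above the ad libitum median of SLC4A4. It may thus have passed the filter through the restricted pigs, where it was higher, and the size of its rise is uncertain. SLC22A3, an organic cation carrier that also takes up monoamines, had 533 to 1238 (median 873) in restricted pigs, against 364 to 774 (median 594) in ad libitum pigs, and rose by 0.54 ± 0.148 (1.46-fold, adjusted p 0.0102). For SLC6A8 and for SLC22A3, 7 of the 10 restricted pigs were above every ad libitum pig.

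SLC38A9, a lysosomal amino acid carrier that signals arginine to the growth regulator mTORC1, rose on its dimmer probe set (209 to 400, median 270, in restricted pigs, against 147 to 295, median 209, in ad libitum pigs; 0.47 ± 0.135, adjusted p 0.0143). Its brighter probe set gave -0.16 (adjusted p 0.183) and did not pass. SLC38A9 was the one amino acid carrier called of 15 probe sets tested (12 genes), and the median over these genes was 0.02. SLC3A2, the heavy chain that partners amino acid exchangers, differed by 0.35 with an adjusted p of 0.304. No probe set was called among 8 nucleoside and vitamin carriers, 2 of fatty acid carriers and the 3 regulators. Of 20 genes with several probe sets tested in fat, 15 had all of them on the same side of 0.

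**Figure D2:**
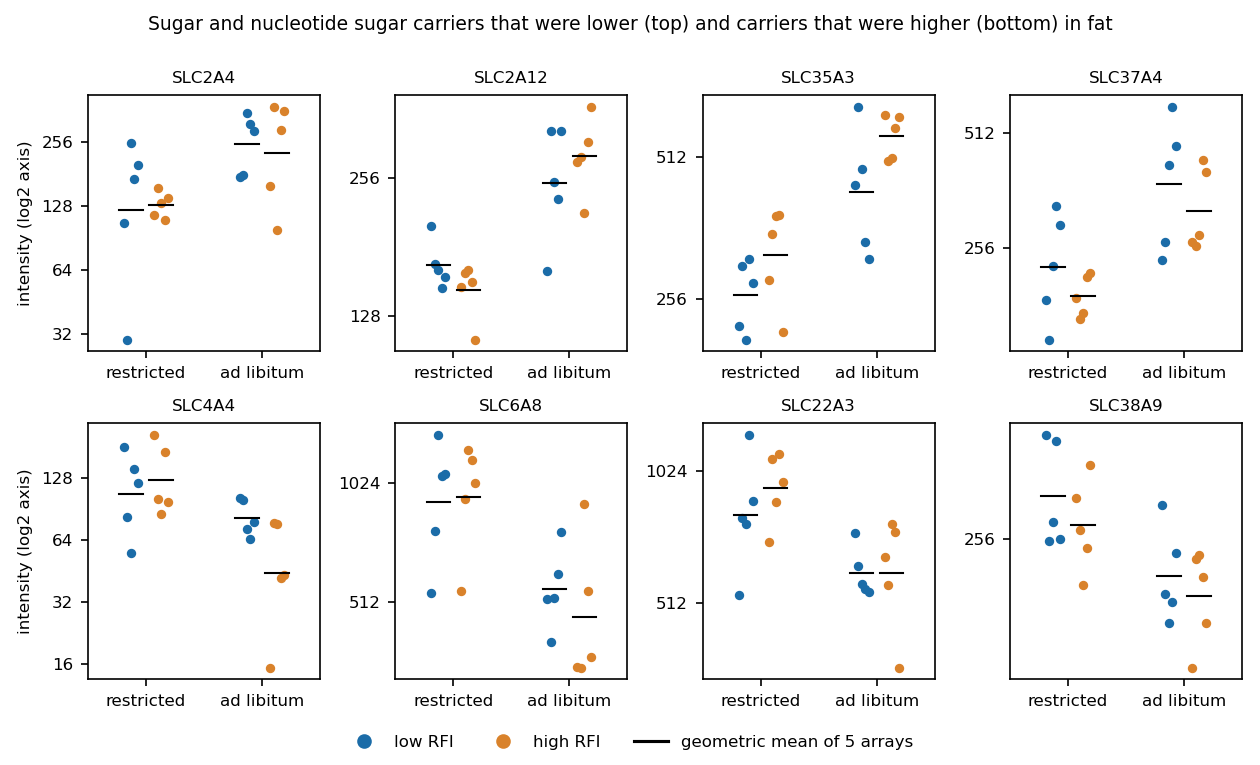
Intensity (log2 axis) in fat of 3 sugar carriers and the nucleotide sugar carrier SLC35A3 (top row, lower in restricted pigs) and of 4 carriers that were higher in restricted pigs (bottom row), with restricted pigs left of ad libitum pigs. Points are arrays, coloured by line, and bars are geometric means of 5 arrays. The groups overlap in every panel.

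All 22 called probe sets had the same sign in low RFI and in high RFI pigs, compared within each line in the same fit. Since the 22 were picked by the average over both lines, the shared sign is partly set by the choice and is no separate test. In low RFI pigs 5 of the 22 passed on their own, and 6 of the 105 tested (5.71%, against 9.2% of all probe sets): SLC25A17, SLC35A3, SLC33A1, SLC30A5 and SLC2A12 fell and SLC25A37, the iron carrier mitoferrin 1, rose. In high RFI pigs 9 passed (8.57%, against 9.02% of all): SLC25A33, SLC25A17, SLC25A39, SLC2A12, SLC35A3, SLC16A13 and SLC30A5 fell, and SLC6A8 and SLC4A4 rose. On the probe set called in low RFI pigs, the brighter of its 2, SLC25A37 differed by 0.39 in low RFI pigs, by -0.05 in high RFI pigs and by 0.17 over both lines (adjusted p 0.0833). On that probe set the difference between the lines, low minus high, was 0.45 ± 0.143 and did not pass in limma. The dimmer SLC25A37 probe set differed by 0.29 in low RFI pigs (adjusted p 0.262) and by 0.29 in high RFI pigs (0.252).

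The GAPDH measure of RNA quality and some markers of other cell types also moved with diet in fat. Actin control probe sets at the 3' end and the 5' end differed by 1.90 ± 0.594 in restricted pigs and 1.80 ± 0.418 in ad libitum pigs on the log2 scale (SD, n = 10 each). GAPDH control probe sets at the 3' end and the 5' end differed by 1.88 ± 0.521 in restricted pigs and 1.19 ± 0.365 in ad libitum pigs on the log2 scale (SD, n = 10 each). With this ratio and that of actin as covariates, all 22 kept their sign and 12 their call: the call ended for SLC25A3 (adjusted p 0.381), SLC25A5 (0.0996), SLC25A6 (0.15), SLC25A11 (0.0631), SLC25A48 (0.26), SLC2A4 (0.26), SLC16A13 (0.0507), SLC22A3 (0.169), SLC6A8 (0.0586) and SLC38A9 (0.0582). The hepatocyte markers summed to 5040 to 87527 in restricted pigs (12450 at most without low RFI restricted replicate 5) and to 3262 to 5262 in ad libitum pigs, and 1 of 4 marker genes tested, APOA1, was higher. Without that array 21 of the 22 calls remained, SLC25A48 having an adjusted p of 0.0612, and with the hepatocyte markers' mean as a covariate all 22 did.

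The summed skeletal muscle markers spanned 460 to 94323 in restricted pigs and 349 to 96779 in ad libitum pigs, with 0 of 9 marker genes called, and with their mean as a covariate 21 calls remained, SLC25A11 having an adjusted p of 0.0528. Of the 2 erythroid genes tested, HBB was higher and ALAS2 lower, and with their mean as a covariate 18 calls remained, those of SLC4A4 (adjusted p 0.125), SLC38A9 (0.089), SLC16A13 (0.0506) and SLC30A5 on its brighter probe set (0.162) not. Of 6 adipocyte genes CFD was higher and LPL lower, of 5 endothelial genes 1 was higher, of 3 fibroblast genes 1 was lower, and of 4 macrophage genes none was called. The part of the adipocyte, endothelial and fibroblast markers in these results was not tested.

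In liver no carrier passed for diet. Of 120 probe sets tested with limma over 15677, 0 had an adjusted p under 0.05, against 0.919% of all probe sets, and 18 had an unadjusted p under 0.05 (15%, against 12.4% of all). The median log2 difference was -0.04 over the carriers and 0.02 over all probe sets. The smallest p belonged to SLC11A2, the divalent metal carrier DMT1, named here after its value was seen: it had 379 to 976 (median 707) in restricted pigs, against 323 to 671 (median 430) in ad libitum pigs, a difference of 0.61 ± 0.162 with an adjusted p of 0.0772. Its adjusted p was 0.0259 without high RFI restricted replicate 3.

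The hepatocyte carriers SLC10A1 and SLC2A2 and the other carriers followed in any case did not pass either. SLC10A1 had 6775 to 16926 in restricted pigs, against 14032 to 18576 in ad libitum pigs, and a difference of -0.23 (adjusted p 0.455). SLC2A2 differed by -0.00324 (adjusted p 0.996), SLC22A3 by 0.42 (adjusted p 0.493), SLC2A1 by 0.22 (0.6), SLC25A5 by 0.32 (0.224), SLC25A6 by -0.00418 (0.993), SLC25A4 by -0.09 (0.772), SLC25A20 by -0.12 (0.807) and SLC3A2 by 0.09 (0.848). Of the 22 probe sets called in fat, 20 were tested in liver, 9 of them with the sign they had in fat and none past the threshold.

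**Figure D3:**
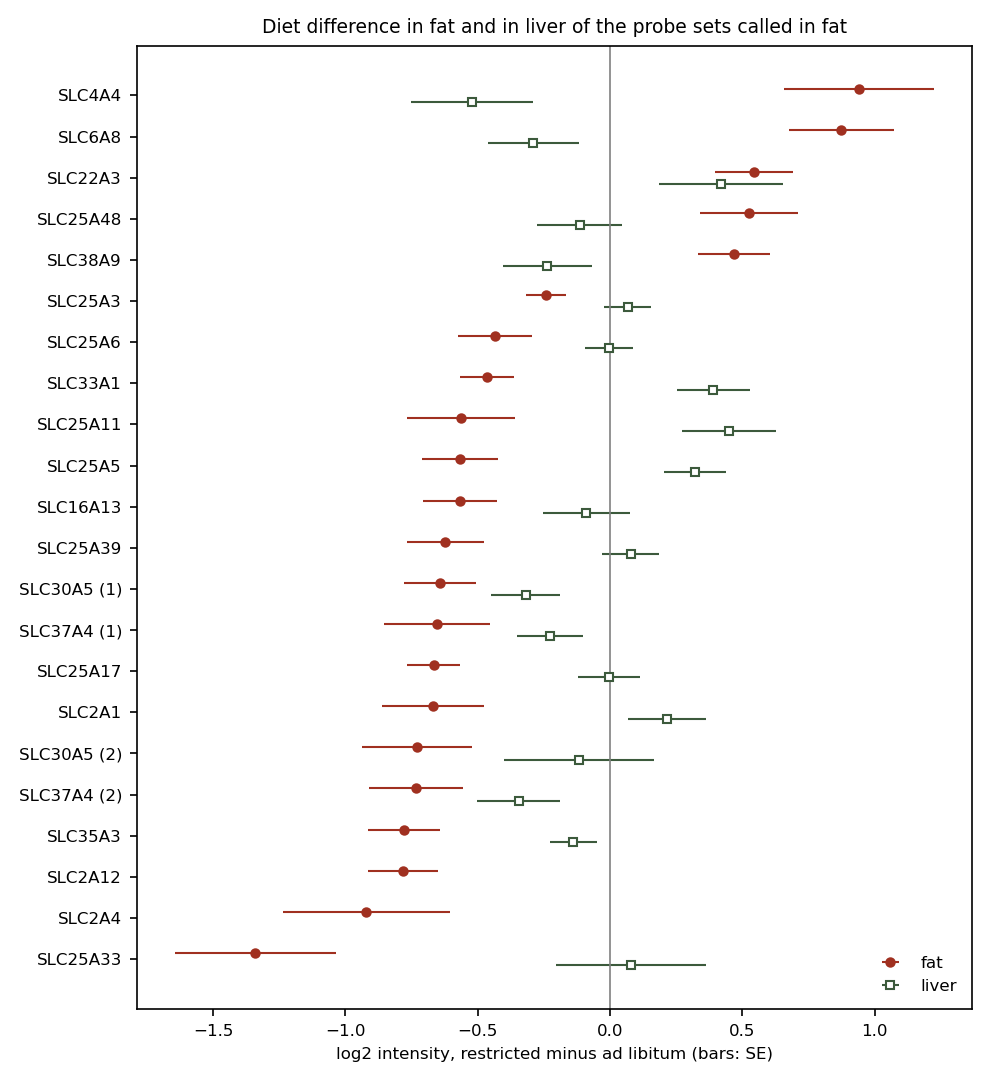
Log2 difference, restricted minus ad libitum, with its SE, of the 22 probe sets called in fat, in fat (filled circles) and in liver (open squares, 20 probe sets). Genes with 2 probe sets called are numbered. The fat values run from -1.34 for SLC25A33 to 0.94 for SLC4A4, and in liver none passed the test.

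**Figure D4:**
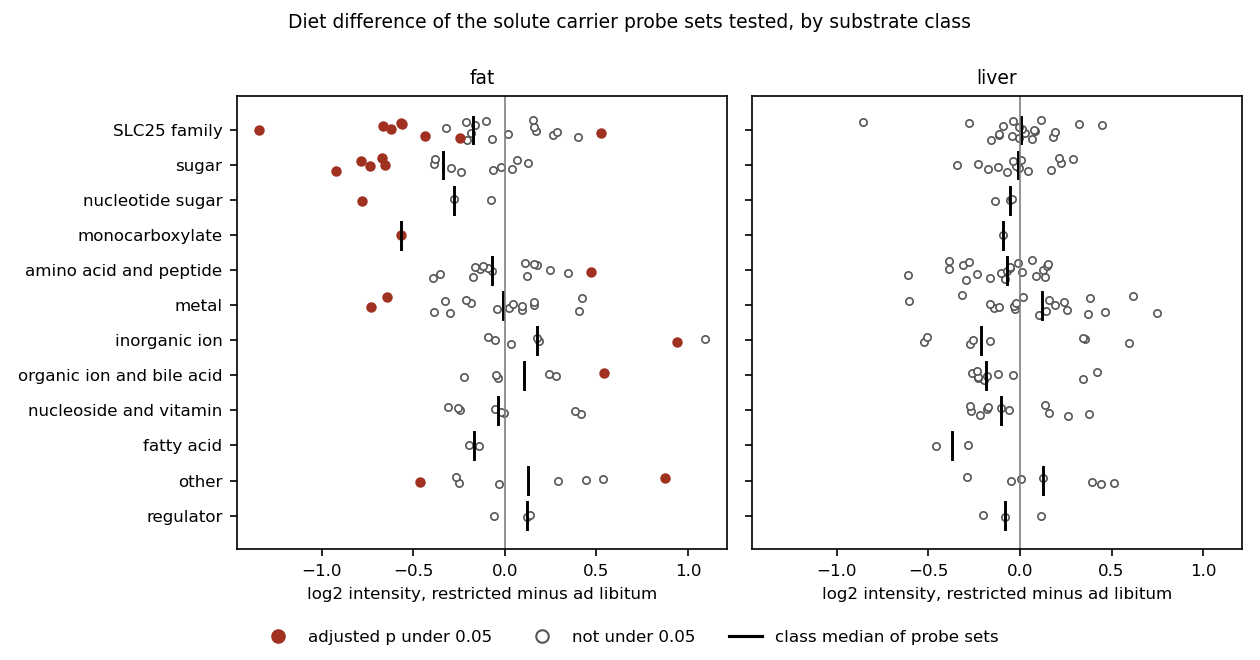
Log2 difference, restricted minus ad libitum, of each solute carrier probe set tested in fat and in liver, by substrate class. Filled points had an adjusted p under 0.05, and black bars are medians of the probe sets of a class. In fat the filled points of the sugar class all lie below 0, and in liver there are none.

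The test of the difference itself, diet in fat minus diet in liver in one fit over 40 arrays and 14001 probe sets, called 12 of 93 carriers (11 genes), which is 12.9% against 10.9% of all probe sets. The difference was negative for 9 (against 6.36% of all) and positive for 3 (against 4.53% of all). The SLC25 family members among the 9 were SLC25A33 (-1.42, adjusted p 0.0208), SLC25A11 (-1.01, 0.0149), SLC25A5 (-0.89, 0.00142), SLC25A39 (-0.70, 0.00937) and SLC25A17 (-0.66, 0.00386). The other negative differences were those of SLC33A1 on 2 of its probe sets (-0.86, adjusted p 0.000754, and -0.77, 0.0441), the glucose carrier SLC2A1 (-0.88, 0.0165) and SLC35A3 (-0.64, 0.00761). SLC4A4 (1.46, adjusted p 0.0083), SLC6A8 (1.16, 0.00369) and SLC38A9 (0.71, 0.0269) had positive differences. The size for SLC4A4 is uncertain here too, as its ad libitum median in fat lay below the filter level. For SLC33A1 restricted pigs had lower medians than ad libitum pigs in fat, but in liver the probe set called in fat had 1237 to 2315 (median 1529) in restricted pigs, against 810 to 1687 (median 1231) in ad libitum pigs, a difference of 0.39 that did not pass (adjusted p 0.2).

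Between the lines no carrier passed in either tissue in the main fit. In fat 0 of 105 were called by limma, low RFI minus high RFI, against 0.0194% of all probe sets, and 14 had an unadjusted p under 0.05 (against 7.78% of all). The smallest p there belonged to SLC30A5 (-0.50, adjusted p 0.234), SLC26A11, an anion carrier that moves sulphate (-0.77, 0.256), and SLC25A37 (0.24, 0.341). These SLC30A5 values are those of the probe set dimmer in fat, on which all 10 low RFI pigs were below the high RFI median. The probe set brighter in fat differed by -0.66 (adjusted p 0.352) and passed with the RNA quality ratios as covariates (adjusted p 0.0345). With the replicate number as a block in limma, that probe set (adjusted p 0.0476) and SLC26A11 (0.0482) passed. SLC26A11 had 161 to 287 (median 225) in low RFI pigs, against 202 to 927 (median 371) in high RFI pigs. The skeletal muscle markers summed to 349 to 96779 in low RFI fat and 410 to 29626 in high RFI fat. Their median log2 difference, low minus high RFI, was 2.33 over 9 genes, with 0 called. With their mean as a covariate the differences of SLC30A5 on its dimmer probe set, SLC26A11 and SLC25A37 kept their sign and did not pass. Beyond this covariate, the part of muscle in these differences was not tested.

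In liver 0 of 120 carriers were called for line by limma, against 0.0447% of all probe sets, and 12 had an unadjusted p under 0.05 (against 6.53% of all). SLC7A9, the light chain of the cystine and dibasic amino acid carrier, came nearest to the threshold. It had 212, 266, 141, 354 and 409 in restricted low RFI pigs and 375, 310, 263, 357 and 233 in ad libitum low RFI pigs, against 130, 123, 139, 26.6 and 130 in restricted high RFI pigs and 195, 169, 114, 146 and 53.5 in ad libitum high RFI pigs. All 10 low RFI pigs were above the high RFI median of 130, with ranges that overlapped, and the log2 difference was 1.37 ± 0.289 with an adjusted p of 0.0925. SLC25A30, a mitochondrial carrier (0.53, adjusted p 0.549), and SLC26A11 (-0.54, 0.564) followed.

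No carrier was called for the line by diet interaction, in fat (0 of 105, against 0% of all probe sets, 3 at an unadjusted p under 0.05 against 1.57% of all) or in liver (0 of 120, against 0% of all, 6 at an unadjusted p under 0.05 against 3.35% of all). SLC9A5, a sodium/proton exchanger, had the smallest p in fat: its geometric means were 108 in restricted and 43.9 in ad libitum low RFI pigs, and 51.9 in restricted and 122 in ad libitum high RFI pigs, a difference between the lines of 2.53 ± 0.636 with an adjusted p of 1. In liver the 3 with the smallest p were SLC11A2 on its dimmer probe set (0.99), SLC35A4 (1.99) and the zinc carrier SLC39A1 (0.59), each with an adjusted p of 0.999. The tissue by line difference called 0 of 93 by limma, against 0.0357% of all, with 5 at an unadjusted p under 0.05 (against 5.12% of all). SLC30A5 (-0.46), SLC25A30 (-0.69) and SLC25A37 (0.27) had the smallest p there, each with an adjusted p of 0.928.

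Fat and liver differed in most carriers measured in both. The arrays of both tissues were fitted as independent here and for the tissue by diet and tissue by line differences, though they came from the same pigs. Of the 93 probe sets tested in both tissues 76 passed (81.7%, against 78.8% of all), 35 higher in fat (against 51.4% of all) and 41 lower in fat (against 27.4% of all). The median log2 difference, fat minus liver, was -0.20 over the carriers and 0.25 over all probe sets. After quantile normalization the median was -0.43 over the carriers and 0.09 over all probe sets. Then 22 carriers were higher and 50 lower in fat, and over all probe sets 6036 were higher and 4775 lower.

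SLC25 family carriers gave 11 higher and 5 lower probe sets in fat. Over all probe sets 51.4% were higher and 27.4% lower in fat. The counts by class here and below are descriptions, and no trait of a class is read from them. SLC25A33 had 915 to 10050 with a median of 2162 in fat, against 32.1 to 137 with a median of 60.5 in liver, and was higher in fat by 5.23 ± 0.207 on the log2 scale (adjusted p 8.82e-24). Its liver signal exceeded the filter level on 8 of 20 arrays, and whether the rest exceeds background is not known, so the size of this difference is uncertain. The same holds for other carriers dim in one tissue, such as SLC22A3 in liver (above the level on 7 of 20 arrays). In liver the geometric means of SLC25A33 were 70.3 in restricted low RFI, 73.4 in restricted high RFI, 79.6 in ad libitum low RFI and 57.9 in ad libitum high RFI pigs. SLC25A24, the calcium-regulated ATP-magnesium/phosphate carrier, had 1245 to 2462 (median 1944) in fat, against 136 to 419 (median 267) in liver, 7.39-fold higher. SLC25A4 was lower in fat (1150 to 4128, median 2136, against 4467 to 8109, median 7122, in liver), and so was SLC25A48 (48.1 to 171, median 113, against 471 to 1232, median 833, in liver). The tissue groups of these 4 named for their wide differences did not overlap, which held for 23 of the 93 carriers (24.7%, against 20.8% of all probe sets).

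Among sugar carriers 4 probe sets were higher and 5 lower in fat. SLC2A3, the neuronal-type glucose carrier GLUT3, was 2.81-fold higher in fat and SLC2A1 1.51-fold higher. SLC37A4 was 18.2-fold lower in fat on its dimmer probe set (147 to 599, median 262, in fat, against 2779 to 7688, median 5208, in liver) and 13.1-fold lower on its other probe set. SLC2A4, on its dimmer probe set, the one tested in both tissues, differed by -0.20 with an adjusted p of 0.338. The medians of that probe set in fat lay within the range of the filter level (91.5 to 119), so it can show little of a tissue difference. The brighter SLC2A4 probe set passed the filter in fat alone and was not compared between tissues.

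Of the amino acid carriers 6 probe sets were higher and 7 lower in fat. The glutamine carrier SLC1A5 had 1326 to 3938 (median 2504) in fat, against 312 to 587 (median 466) in liver, 5.45-fold higher, and the arginine carrier SLC7A1 was 1.85-fold higher. The glutamate carrier SLC1A1 was 6.53-fold lower and SLC38A1, a sodium-coupled glutamine carrier, 4.35-fold lower in fat on their lowest probe sets. Among organic ion carriers SLC22A3 had 364 to 1238 (median 741) in fat, against 41.3 to 153 (median 79.8) in liver, 8.83-fold higher, and SLCO3A1 was 2.37-fold higher. SLCO2B1, which takes up steroid sulphates and drugs, had 288 to 648 (median 506) in fat, against 3531 to 6668 (median 5331) in liver, 10.9-fold lower.

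Metal carriers gave 3 higher and 6 lower probe sets, with the magnesium carrier SLC41A1 2.04-fold higher and SLC30A5 1.63-fold higher on the probe set brighter in fat, and with the copper carrier SLC31A1 6.91-fold and the zinc and iron carrier SLC39A14 7.14-fold lower in fat. The other SLC30A5 probe set differed by -0.01 on the log2 scale and was not called (adjusted p 0.92 in limma), so its probe sets did not give the same result. Inorganic ion carriers gave 0 higher and 4 lower, among them SLC4A4 (2.11-fold lower) and SLC4A2, an anion exchanger (1.68-fold lower, adjusted p 0.0421), whose call was lost when any one of 18 of the 40 arrays was left out (adjusted p 0.0501 to 0.0783). Nucleoside and vitamin carriers gave 1 higher, the riboflavin carrier SLC52A2 (1.57-fold), and 6 lower, among them the folate carrier SLC46A1 (2.71-fold) and SLC46A3 (2.9-fold). Of the remaining carriers, the choline carrier-like SLC44A2 was 1.56-fold to 1.73-fold higher on 3 probe sets, SLC33A1 was lower on 3 (2.42-fold to 3.14-fold), SLC35A3 was 3.17-fold lower and SLC16A13 1.35-fold higher. The SLC16A13 call was lost after quantile normalization and with the arrays numbered 1 and 2 alone. SLC27A6, a fatty acid carrier, was 1.26-fold lower (adjusted p 0.011) on one probe set and not called on the other (adjusted p 0.0894). Its call was lost with the RNA quality ratios as covariates and with the arrays numbered 1 and 2 alone. The scaffold SLC9A3R1 was 11.7-fold lower and SLC2A4RG, a transcription regulator of GLUT4, 1.31-fold lower in fat.

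**Figure D5:**
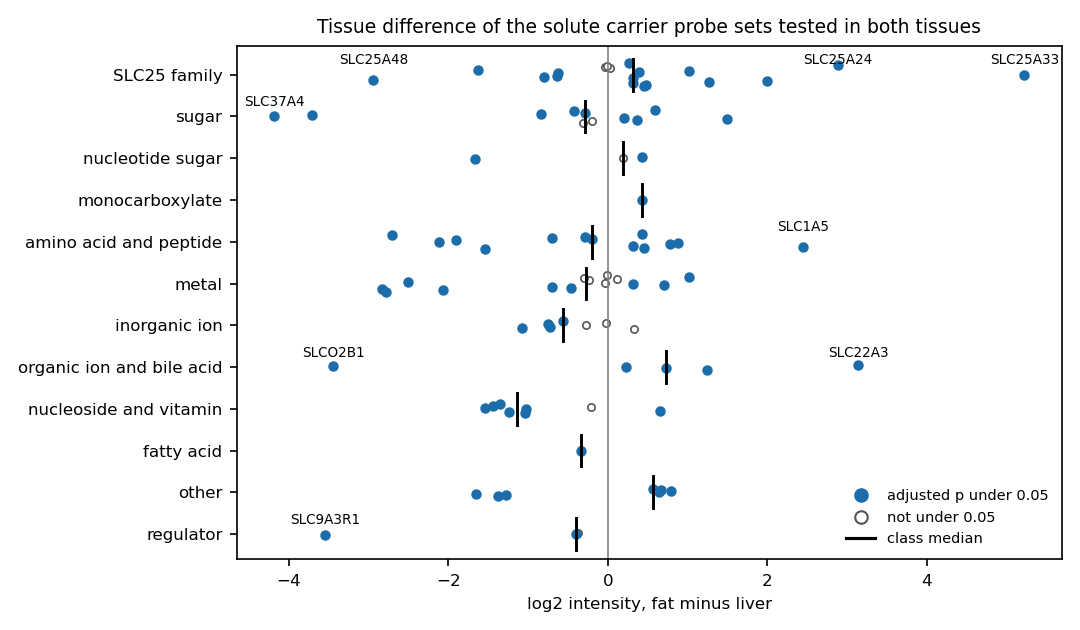
Log2 difference, fat minus liver, of the 93 solute carrier probe sets tested in both tissues, by class. Filled points had an adjusted p under 0.05, black bars are class medians, and names mark some of the widest differences. The values run from -4.18 for SLC37A4 to 5.23 for SLC25A33.

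Partner genes of the carriers, taken from a list of 52 genes of other transport families, were read in the same fit. Of 27 genes tested in fat, 3 were higher and 12 lower in restricted than in ad libitum pigs by their brightest probe set (over all probe sets 15.1% were higher and 10.7% lower), and in liver 0 of 42 probe sets (30 genes) were called by limma, with 7 at an unadjusted p under 0.05 (against 12.4% of all). The outer mitochondrial membrane channels fell: VDAC1 by 1.19 and 0.93 on its 2 probe sets (adjusted p 2.68e-06 and 5.14e-06), VDAC2 by 0.59 on its brightest and VDAC3 by 0.27. The mitochondrial pyruvate carrier subunits MPC2 (-1.33, adjusted p 1.36e-06) and MPC1 (-0.29) fell, as did HK1, the hexokinase that traps glucose in the cell (-1.13, adjusted p 6.16e-05), and the uncoupling protein UCP3 (-0.51), whereas UCP2 differed by 0.03 and was not called. Of 8 mitochondrial import genes TIMM8B (-0.48), TOMM22 (-0.35) and TIMM13 (-0.27) fell. The water channel AQP11 fell (-1.13), and the glycerol and water channel AQP3 (1.11, adjusted p 0.00415), the cholesterol exporter ABCA1 (1.86, adjusted p 4.27e-06) and the drug and urate exporter ABCG2 (0.55 and 0.68 on its 2 probe sets) rose. The sodium pump subunit ATP1B3 fell by 0.33, and BSG, the chaperone of monocarboxylate carriers, differed by -0.31 and was not called (adjusted p 0.424).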

How the data were processed

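Biotin-labelled RNA from each tissue sample was hybridised to a 1-colour porcine Affymetrix array. The deposited values are linear intensities per probe set, and affy and MAS5 are named in the submitters' processing notes without version or role. Per the deposited table, the trimmed mean intensity of each array (2% cut at each end) was 500.09 to 500.15. No presence calls or probe-level values entered, so whether a dim probe set exceeds background is not known.

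Log2 intensities without offset were fitted with limma 3.58.1 in R 4.3.3 (group means, eBayes with an intensity trend, Benjamini-Hochberg adjustment over all probe sets tested, threshold 0.05). Line was averaged over in the diet comparison and diet in the line comparison. Tested were probe sets above the 40th percentile of the array (an intensity of 72.6 to 119) on 5 or more of a tissue's 20 arrays; comparisons of tissues used probe sets passing in both. Each group of 5 arrays stands for 5 pigs per the series' design, and the number of arrays limits the precision. The main fits over both tissues treated the 40 arrays as independent. Liver and fat came from the same 20 pigs, and this pairing was not modelled because the labels do not give it. Tables and figures used Python 3.11.15 with pandas 2.3.3 and matplotlib. The fit was tested on simulated data.

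Gene symbols came from GEO's platform annotation: 10069 probe sets had 1 symbol, 198 several and 13732 none; 5 probe sets with several symbols, 1 of them a carrier, were left out. Of the 169 members, 167 had a gene identifier in the RefSeq table of Sscrofa11.1, and no symbol differed. Substrate classes were assigned by hand. The members, classes, partner genes and marker lists were chosen with earlier results of these data known. Named genes were all carriers called for diet, the 3 with the smallest p for line and the interactions where none was called, the 2 highest and 2 lowest called per class for the tissue difference, and a fixed list of 14 genes; others are marked as chosen after their values were seen. A class median takes the brightest probe set of each gene. Alternatives were quantile normalization, no or a stricter filter (60th percentile), an offset before the log2 (the 20th percentile), eBayes without trend, the replicate number as a block, the arrays numbered 1 and 2 or 3 to 5 alone, covariates for RNA quality and for marker lists, and each array left out in turn.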

Additional observations from a re-analysis of the deposited data

Results flagged for a closer look

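Among 436 groups of 5 arrays (109 combinations of a named probe set and a tissue), 21 held 1 array far from the other 4 by Dixon's criterion, which chance alone gives in about 1 group in 20, so the number of such arrays is near that share and no pattern is read from it. In fat, restricted high RFI replicate 5 stood apart for 4 genes: SLC2A3 was 1377 against 460 to 551 in the other 4 arrays, SLC2A4 on its dimmer probe set 18.8 against 103 to 150, SLC2A12 114 against 148 to 161, and SLC7A1 205 against 341 to 403. In restricted high RFI fat SLC41A1 was also low in replicate 1 (132, others 181 to 203) and SLC46A3 in replicate 3 (165, others 313 to 401). In restricted low RFI fat SLC25A39 was low in replicate 2 (321, others 427 to 479). In ad libitum high RFI fat replicate 3 was low for SLC25A33 (3048, others 7269 to 10050) and SLC30A5 (787, others 993 to 1040), and replicate 5 was high for SLC9A5 (175, others 106 to 120). In ad libitum low RFI fat SLC46A1 was low in replicate 1 (233, others 355 to 416) and SLC1A1 in replicate 3 (73.9, others 101 to 113).

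In liver SLC10A1 was low in restricted low RFI replicate 5 (6775, others 14088 to 16926), and so were SLC25A24 (136, others 269 to 326) and SLC9A5 (20.03, others 105 to 177) in replicate 4 of that group, whose replicate 2 was high for SLC2A3 (279, others 159 to 173). In restricted high RFI liver replicate 4 was high for SLC25A37 (677, others 562 to 588) and low for SLC7A9 (26.6, others 123 to 139). In ad libitum low RFI liver SLC2A1 was low in replicate 4 (203, others 299 to 306). In ad libitum high RFI liver SLC25A33 was high in replicate 3 (114, others 44.4 to 55.8) and SLC7A1 low in replicate 5 (109.6, others 180 to 214).

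The diet difference in fat differed from that in liver for 12 probe sets by the tissue by diet interaction in limma. Fat minus liver, on the log2 scale, was -1.42 for SLC25A33, -1.01 for SLC25A11, -0.89 for SLC25A5, -0.88 for SLC2A1, -0.86 and -0.77 for SLC33A1, -0.70 for SLC25A39, -0.66 for SLC25A17 and -0.64 for SLC35A3. It was 1.46 for SLC4A4, 1.16 for SLC6A8 and 0.71 for SLC38A9.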

How the results depend on the processing

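No called result changed sign under any alternative run. The count of 22 carriers called for diet in fat became 13 with the actin and GAPDH ratios as covariates, 1 with the arrays numbered 1 and 2 alone (SLC35A3), where 8 arrays enter, and 19 to 24 when each array was left out. The log2 actin 3' to 5' ratio in fat was 2.27 ± 0.553 in the arrays numbered 1 and 2 (n = 8) and 1.56 ± 0.163 in those numbered 3 to 5 (SD, n = 12), so the 2 sets were also fitted apart: all 22 kept their sign in both, and 15 were past the threshold in numbers 3 to 5. The 12 tissue by diet calls became 0 with numbers 1 and 2, 5 with numbers 3 to 5 and 11 to 14 with an array left out. The 76 calls between tissues became 124 without the filter, where more probe sets are tested, 44 under the stricter filter, where fewer are, and 74 to 79 with an array left out. The 20 partner probe sets called in fat became 11 with the ratios, 7 with numbers 1 and 2, 13 with numbers 3 to 5 and 16 to 19 with an array left out. The SLC25 family median of -0.20 became -0.36 with the erythroid covariate and -0.26 to -0.16 with an array left out. Where the number of arrays does not fall, the cause was not tested.

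Counts of 0 moved by 1 or 2: for diet in liver to 2 with the ratios (SLC11A2 and SLC25A5), to 1 without high RFI restricted replicate 3 (SLC11A2, adjusted p 0.0259) and to 2 without low RFI ad libitum replicate 2 (2 probe sets of SLC33A1, 0.0484 and 0.0481), for line in fat to 1 with the ratios (SLC30A5, 0.0345), and for partners in liver to 1 with the ratios. Same-numbered arrays of different groups correlated in their deviations from the group means by 0.0198 to 0.387 in fat and by -0.00429 to 0.299 in liver (arrays of different numbers by -0.0483 and -0.0445 on average), and fat with liver of the same group and number by 0.0705 to 0.318 (mean 0.216). As not every pair exceeded 0.1 and the labels do not say what a number marks, the numbers were not taken to pair arrays, though like-numbered arrays deviated together on average; 13 of 20 fat and 12 of 20 liver arrays were most like one of their own number. With the replicate number as a block the counts were 31 for diet in fat (10 higher, 21 lower), 1 for diet in liver (SLC11A2, 0.0366), 2 for line in fat (SLC26A11, 0.0482, and SLC30A5, 0.0476), 18 for tissue by diet, 79 between tissues and 21 and 1 for the partners in fat and liver.

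Uncalled differences near 0 changed sign: SLC2A4 on its dimmer probe set in fat (0.23 with numbers 1 and 2, 0.0256 and 0.0795 with the erythroid and hepatocyte covariates, -0.16 to 0.21 with an array left out) and liver (-0.30 and -0.0385 with numbers 1 and 2 and the erythroid covariate, -0.0259 to 0.125 with an array left out), SLC2A2 in liver (0.0308 with the ratios, 0.0191 with numbers 1 and 2, 0.0576 with the erythroid covariate, 0.00443 after quantile normalization, -0.0615 to 0.0893 with an array left out), SLC25A4 in fat (0.18 with the ratios, 0.0121 with numbers 1 and 2) and liver (0.0418 with numbers 1 and 2, 0.0257 with the erythroid covariate), SLC25A6 in liver (0.0855 with numbers 1 and 2, 0.0345 with the erythroid covariate, -0.047 to 0.027 with an array left out), SLC25A20 in fat (0.078 with the erythroid covariate) and SLC35A4 on its dimmer probe set between tissues (-0.0756 with numbers 1 and 2, -0.0378 after quantile normalization). Probe sets near the filter level carry little signal, and their log2 differences are the least precise.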
